A study of Mus musculus with 14 samples.

Results

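The genes described are 40 mouse genes of mitosis and the spindle, chosen by symbol from the known machinery of G2 and M phase, out of 30436 genes and unnamed transcripts measured in the series. RNA was sequenced from frozen liver tissue in 14 samples. All came from male mice of the inbred C3HeB/FeJ line, which is prone to spontaneous liver tumours. The labels give all samples an age of 18 months and mark 6 tumours as Grow, 4 tumours as Regress and 4 samples as normal liver (Normal), without saying how growth or regression was scored. The animals were examined for tumours at 10 months and then injected intraperitoneally on 5 days of every 28-day cycle for 6 cycles. Grow 1 and Grow 5 received the solvent DMSO. Grow 2, Grow 3 and Grow 4 received suberoylanilide hydroxamic acid (SAHA, a histone deacetylase inhibitor) at 85 mg/kg with temozolomide (TMZ, a DNA-methylating drug) at 22 mg/kg, and Grow 6 received SAHA at 100 mg/kg. Regress 1 and Regress 3 received TMZ at 31 mg/kg, Regress 2 phosphate citrate buffer and Regress 4 DMSO. All 4 Normal samples received the buffer. One sample code in the labels is shared by Normal 4 and Regress 2. Where nothing says that other samples came from separate animals, p-values measure only the spread between these samples.

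Mitosis runs on a program of genes that are switched on together late in the cell cycle. Cyclins A and B activate the kinase Cdk1, Polo-like and Aurora kinases build the spindle, kinetochores hold chromosomes on microtubules, and the spindle checkpoint delays the anaphase-promoting complex (APC/C) until every chromosome is attached. Foxm1 and the MuvB complex drive many of these genes, and the CHR element near their start sites, often with CCAAT boxes upstream, is the sequence through which the complex named DREAM holds them down in resting cells. Hepatocytes of the adult liver rarely divide, so these transcripts are normally scarce there. In bulk tissue, fewer dividing cells and less RNA per dividing cell cannot be told apart.

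Promoters are shown for the CHR element, which is known from the starts of genes of this program. The members were chosen as genes of that program, so the shares given below describe them and test nothing. A RefSeq table of the build GRCm38.p6 gives 250 bases before to 50 bases after each annotated start, and 33 of the 40 genes matched it with 35 promoters. Tpx2, Aurkb, Ccna2, Spc24, Kif20a, Foxm1 and Pbk are not among them. The CHR element was searched as TTTGAA or TTCGAA and the CCAAT box as CCAAT, each on both strands, so that TTCAAA and ATTGG also count. TTCGAA reads the same on both strands, and neighbouring CHR elements and CCAAT boxes can share end letters. Of the 6 promoters below, Cdk1, Ccnb2, Top2a and Cenpa belong to genes called higher in tumours, Ccnf carries the elements without a called change, and Mad2l1 has neither motif. Sequences run 5′ to 3′ along the gene's strand, and capitals mark CHR elements and CCAAT boxes.
Cdk1 chr10:69352863-69353162 (minus strand): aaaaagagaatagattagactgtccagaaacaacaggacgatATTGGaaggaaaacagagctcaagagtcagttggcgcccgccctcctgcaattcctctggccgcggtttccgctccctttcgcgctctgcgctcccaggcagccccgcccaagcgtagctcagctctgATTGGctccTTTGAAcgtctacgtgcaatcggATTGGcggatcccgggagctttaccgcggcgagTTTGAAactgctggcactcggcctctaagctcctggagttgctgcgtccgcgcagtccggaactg
Ccnb2 chr9:70421505-70421804 (minus strand): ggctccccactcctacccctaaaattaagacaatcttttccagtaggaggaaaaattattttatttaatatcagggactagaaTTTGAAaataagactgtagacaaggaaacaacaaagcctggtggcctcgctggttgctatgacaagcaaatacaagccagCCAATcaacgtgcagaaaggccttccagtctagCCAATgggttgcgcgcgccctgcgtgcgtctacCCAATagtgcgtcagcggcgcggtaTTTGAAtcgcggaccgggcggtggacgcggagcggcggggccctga
Top2a chr11:99024140-99024439 (minus strand): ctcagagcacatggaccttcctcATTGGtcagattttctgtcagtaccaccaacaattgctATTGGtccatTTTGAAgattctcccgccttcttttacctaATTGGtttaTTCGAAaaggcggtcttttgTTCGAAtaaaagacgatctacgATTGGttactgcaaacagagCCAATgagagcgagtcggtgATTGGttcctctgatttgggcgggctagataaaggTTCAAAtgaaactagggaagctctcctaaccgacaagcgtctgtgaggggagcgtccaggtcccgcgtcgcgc
Cenpa chr5:30666636-30666935 (plus strand): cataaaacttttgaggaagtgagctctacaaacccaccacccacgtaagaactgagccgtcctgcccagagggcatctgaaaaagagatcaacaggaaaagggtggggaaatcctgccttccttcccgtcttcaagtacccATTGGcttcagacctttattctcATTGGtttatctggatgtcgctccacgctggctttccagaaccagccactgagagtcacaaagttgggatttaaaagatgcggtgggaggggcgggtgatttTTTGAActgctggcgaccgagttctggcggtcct
Ccnf chr17:24251360-24251659 (minus strand): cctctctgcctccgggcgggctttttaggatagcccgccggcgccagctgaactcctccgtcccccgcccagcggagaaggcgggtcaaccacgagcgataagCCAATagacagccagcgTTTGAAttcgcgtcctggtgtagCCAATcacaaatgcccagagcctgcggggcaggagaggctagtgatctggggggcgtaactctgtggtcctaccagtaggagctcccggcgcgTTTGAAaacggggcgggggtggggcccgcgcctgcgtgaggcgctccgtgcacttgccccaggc
Mad2l1 chr6:66534971-66535270 (plus strand): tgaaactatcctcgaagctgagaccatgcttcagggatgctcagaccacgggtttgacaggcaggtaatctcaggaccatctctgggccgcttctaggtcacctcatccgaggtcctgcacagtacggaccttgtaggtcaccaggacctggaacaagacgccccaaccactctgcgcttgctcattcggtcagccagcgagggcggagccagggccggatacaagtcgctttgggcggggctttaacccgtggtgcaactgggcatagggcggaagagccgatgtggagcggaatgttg

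A CHR element was present in 28 of the 35 promoters (80.0%), against 19.2% of all 32851 promoters in the table. A CCAAT box was present in 77.1% of the members' promoters and 37.4% of all promoters, and both together in 71.4% and 7.52%. The position differed as well. In 26 of the 35 promoters (74.3%) the first base of a CHR element lay within 40 bases of the annotated start, which held for 4.54% of all promoters (the 40-base window was chosen after the positions had been seen). In Cdk1 the nearest element begins 15 bases before the start, in Ccnb2 at base 5 after it and in Cenpa at base 17 after it. Birc5, Ccnb1, Cenpe, Mad2l1, Melk, Nuf2 and Nusap1 had no such letters in the window. Of 126 other mitosis genes listed for comparison, 104 had 124 promoters in the table, and 39.5% of these held a CHR element. Of the 21 tested members with an element within 40 bases of a start, 12 were called higher in tumours, with a median log2 fold change of 3.26. Of the 7 with a promoter and no element so near, 3 were called, with a median of 3.56. Promoters were not matched on base composition, and a match is a description of letters only.

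**Figure D1:**
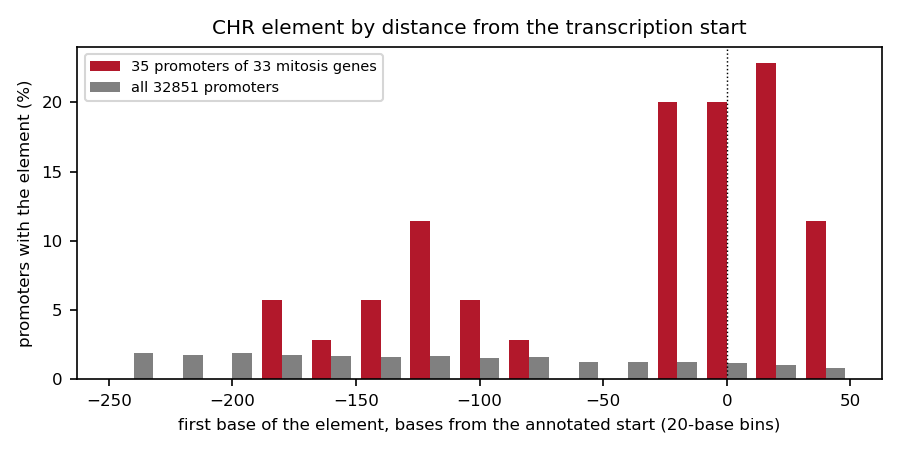
Share of promoters (y axis, percent) with a CHR element beginning in each 20-base bin of distance from the annotated start (x axis, bases), for the 35 promoters of the mitosis genes (red) and all 32851 promoters (grey). The red bars stand at 11.4% to 22.9% in the 4 bins from 30 bases before to 50 bases after the start, where grey bars lie near 1%, and an upstream bin at 130 to 110 bases before the start also reaches 11.4%.

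Estimated counts per library summed to between 4707063 (Regress 3) and 13394301 (Grow 1). The 40 genes were scarce everywhere. Together they took 697 to 2058 counts in a Grow library and 284 to 1387 counts in a Regress library, against 154 to 232 counts in a Normal library, so the low end of every comparison rests on few reads. A total of 27 members had at most 10 counts over all 4 Normal libraries together and 22 had 0 counts in at least 1 of them, whereas no member was at 0 in a Grow library. Levels are given as CPM, a gene's share of its library's counts scaled to a common library size after TMM adjustment. Genes with enough counts entered edgeR's two-sided quasi-likelihood test, which left 12300 features and 35 of the 40 members, and called means a p under 0.05 after Benjamini-Hochberg adjustment over all 12300. Melk, Ttk, Cenpe, Ndc80 and Kif23 were too low to be tested.

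At least 1 gene of every role group except the chromosomal passenger complex was called higher in tumours. The 3 genes of that complex had changes above 0 without a call. In the contrast of all tumours (Grow and Regress weighted equally) with Normal, edgeR called 19 of 35 members higher and 0 lower, against 1.59% of all 12300 features called higher. Log2 fold changes were above 0 for 34 members, where 50.9% of all features lay above 0, and the median was 3.31 against 0.01. Of the 35, 33 had an unadjusted p under 0.05, against 18.0% of all features. The members called were Top2a, Ccnb1, Ccnb2, Ccna2, Cdk1, Plk1, Aurka, Pbk, Bub1, Bub1b, Cenpa, Kif2c, Tpx2, Nusap1, Hmmr, Prc1, Kif20a, Ect2 and Racgap1. The count depended on single libraries. It was 0, 1, 0 and 0 without Normal 1, 2, 3 or 4. The calls higher over all features then fell from 195 to 3, 25, 0 and 6. It was 29 without Regress 1 (4.73% of features higher) and 6 without Regress 3 (80 features higher). Without Grow 1, 4, 5 or 6 it was 9, 10, 5 and 5 (113, 162, 78 and 63 features higher). The members' median stayed between 2.87 and 3.45. DESeq2 called 29 members (5.89% of all features higher) and limma-voom 0 (0.366%).

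**Figure D2:**
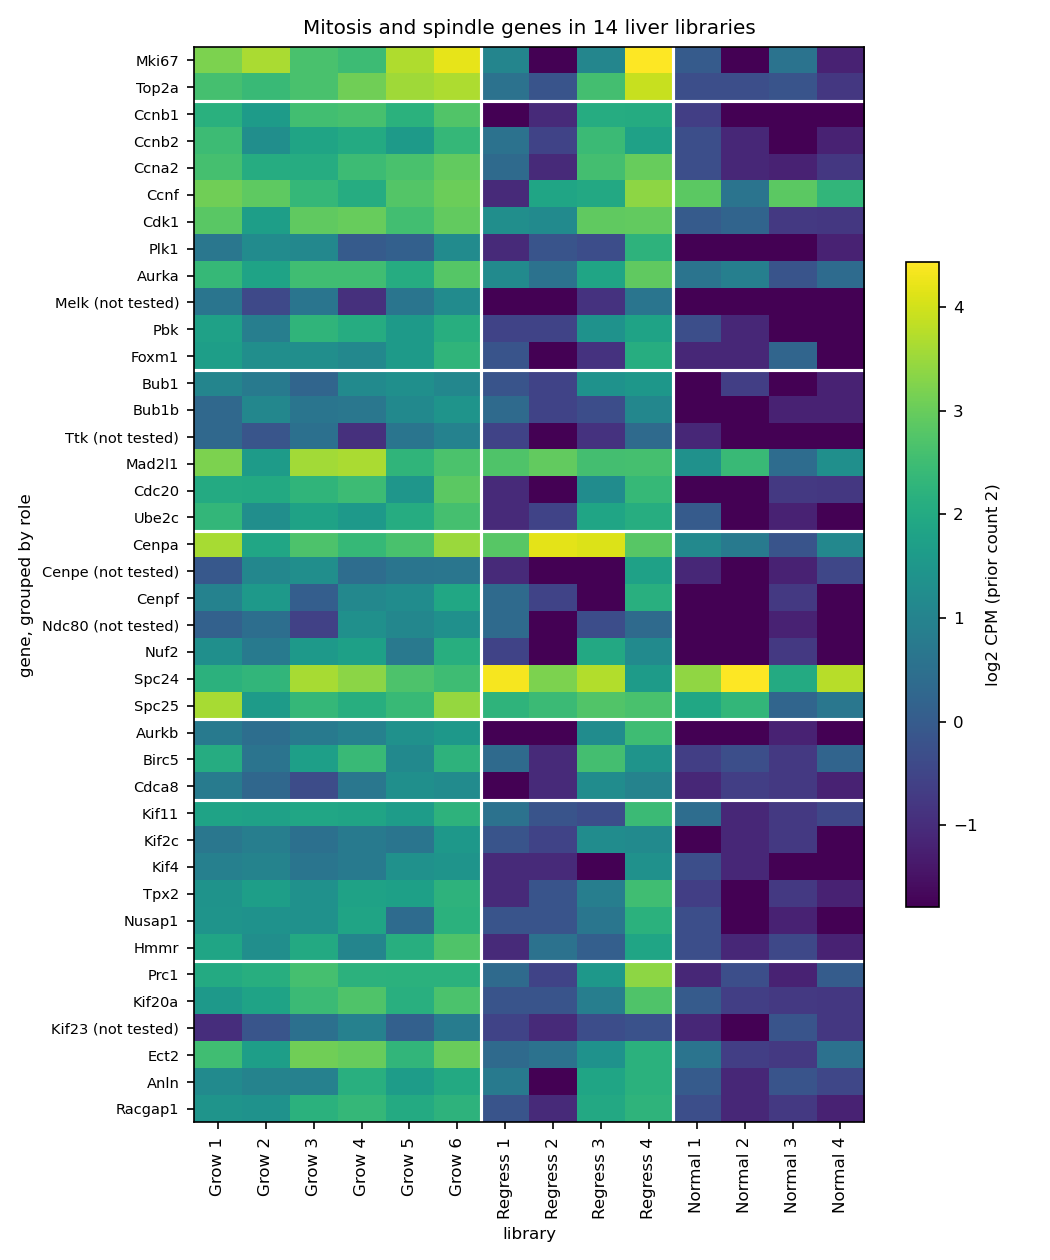
Heat map of log2 CPM (prior count 2, colour scale) for the 40 genes (rows, grouped by role with white lines) in the 14 libraries (columns, Grow and Regress tumours left of Normal). The 6 Grow columns and Regress 4 are bright in most rows, Regress 1 and Regress 2 are close to the 4 Normal columns, and Spc24 and Ccnf are bright in Normal too.

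Of the 2 proliferation markers 1 was called. Top2a, the topoisomerase that untangles sister chromosomes, had 5.11, 7.03 and 12.4 CPM as the lowest, median and highest of the Grow tumours and 1.18, 0.593, 5.67 and 14.7 CPM in Regress 1 to 4, against 0.527, 0.526, 0.598 and 0.291 CPM in Normal 1 to 4. Grow lay wholly above Normal, and Regress 2 was within the Normal range. Its log2 fold change in tumours was 3.75 ± 0.77 (SE; edgeR adjusted p = 0.0291). Mki67, whose protein Ki-67 coats mitotic chromosomes, had 5.31, 10.5 and 18.1 CPM in Grow and 1.77, 0, 1.80 and 21.3 CPM in Regress 1 to 4, against 0.702, 0, 1.20 and 0.145 CPM in Normal. Grow and Normal did not overlap, while the Regress tumours ran from 0 counts to the highest value of the series. Its change of 3.94 ± 1.11 was as large as that of Top2a but was not called (edgeR adjusted p = 0.0722).

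Of the mitotic cyclins, kinases and their regulator, 7 of 9 tested genes were called higher in tumours. Cdk1, the kinase that starts mitosis, had 2.94, 7.04 and 7.66 CPM in Grow and 2.17, 1.98, 7.21 and 7.34 CPM in Regress 1 to 4, against 0.702, 0.876, 0.299 and 0.291 CPM in Normal. All 10 tumours exceeded all 4 Normal samples. Its log2 fold change of 3.31 ± 0.52 had an edgeR adjusted p of 0.0173. Ccnb2, a B-type cyclin that activates Cdk1, had 2.17, 3.53 and 5.27 CPM in Grow and 1.18, 0.395, 5.15 and 3.10 CPM in Regress, against 0.527, 0.175, 0 and 0.145 CPM in Normal, with Regress 2 alone among the tumours inside the Normal range. It changed by 3.76 ± 0.76 (edgeR adjusted p = 0.0290). Ccnb1, cyclin B1, rose too, on a Normal total of 2 counts, which gave a ratio of tumour to Normal counts of 49.4 with an exact 95% counting interval of 13.5 to 410. Plk1, the Polo-like kinase of spindle assembly, had 1 count in Normal and a ratio of 37.2 (6.54 to 1483), and it was above every Normal sample in all 10 tumours.

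Foxm1, the transcription factor of the program, was not called. It had 1.89, 2.45 and 4.61 CPM in Grow and 0.591, 0, 0.258 and 3.95 CPM in Regress 1 to 4, against 0.176, 0.175, 0.897 and 0 CPM in Normal (2.50 ± 0.93, edgeR adjusted p = 0.165). Grow lay above Normal throughout, whereas Regress 1, 2 and 3 overlapped it. Ccnf, which encodes cyclin F, a substrate receptor of an SCF ubiquitin ligase, stood apart. It had 3.89, 6.81 and 8.13 CPM in Grow and 0.197, 3.36, 3.61 and 10.2 CPM in Regress, against 7.02, 1.23, 7.02 and 4.66 CPM in Normal. The 3 groups overlapped, and the change was 0.09 ± 0.58 (edgeR adjusted p = 0.976). The untested kinase gene Melk had 0.236, 1.25 and 2.03 CPM in Grow and 0, 0, 0.258 and 1.27 CPM in Regress, against 0 counts in every Normal library, which allow up to 0.120 CPM over the 4 together.

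In the checkpoint and anaphase group 2 of 5 tested genes were called in tumours and 4 of 5 in Grow alone. Bub1b encodes the checkpoint protein BubR1, and had 0.952, 1.58 and 2.40 CPM in Grow and 0.985, 0.395, 0.515 and 1.83 CPM in Regress, against 0, 0, 0.149 and 0.145 CPM in Normal. Bub1, a checkpoint kinase at kinetochores, had 0.884, 1.80 and 2.17 CPM in Grow and 0.591, 0.395, 2.32 and 2.54 CPM in Regress, against 0, 0.350, 0 and 0.145 CPM in Normal. All 10 tumours were above all Normal samples for both genes, on only 2 and 3 Normal counts. The count ratios were 17 (4.59 to 143) for Bub1b and 13.7 (4.57 to 67.3) for Bub1, with edgeR adjusted p of 0.0290 and 0.0363. Cdc20, the activator of the APC/C, and Ube2c, its ubiquitin-conjugating enzyme, had an edgeR adjusted p of 0.0423 and 0.0457 in Grow, which were calls, and of 0.0534 and 0.0539 over all tumours, which were not. Mad2l1, the checkpoint protein that binds Cdc20, had the smallest change of the group. Its Grow values were 2.79, 7.51 and 12.1 CPM and its Regress values 6.30, 7.31, 5.67 and 5.78 CPM, against 2.28, 5.08, 1.05 and 2.18 CPM in Normal (1.39 ± 0.44, edgeR adjusted p = 0.0996). Grow overlapped Normal here, and Regress did not. Ttk, a checkpoint kinase that was not tested, spanned 0.236 to 1.66 CPM in Grow and 0 to 0.394 CPM in Regress 1 to 3 with 0.988 CPM in Regress 4, against 0 to 0.176 CPM in Normal.

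Of the centromere and kinetochore genes 1 of 5 tested was called. Cenpa, the histone H3 variant that marks centromeres, had 3.41, 6.06 and 12.1 CPM in Grow and 6.70, 17.8, 17.0 and 6.77 CPM in Regress 1 to 4, against 1.93, 1.40, 0.598 and 1.89 CPM in Normal. All tumours were above all Normal samples, and Regress 2, which was low for most members, had the highest value of the series here. The change was 2.67 ± 0.48 (edgeR adjusted p = 0.0221). Nuf2, an arm of the Ndc80 complex that grips microtubules, had 1.37, 2.42 and 4.06 CPM in Grow and 0.394, 0, 3.61 and 1.98 CPM in Regress, against 0, 0, 0.299 and 0 CPM in Normal. Regress 2 was at 0 like 3 of the Normal samples, and the other tumours were above Normal. Its count ratio was 26.1 (7.10 to 217) on 2 Normal counts, and it was called in Grow (edgeR adjusted p = 0.0466) but not over all tumours (0.0515). Spc24, from the other end of the same complex, was the only tested member with a negative change. It had 4.32, 5.76 and 12 CPM in Grow and 19.9, 8.90, 12.9 and 2.82 CPM in Regress, against 10.2, 21.0, 3.74 and 13.2 CPM in Normal (-0.44 ± 0.46, edgeR adjusted p = 0.733). The groups overlapped throughout. Its partner Spc25 had 2.79, 4.91 and 12 CPM in Grow and 4.53, 5.14, 6.44 and 5.93 CPM in Regress, against 3.51, 4.73, 0.897 and 1.31 CPM in Normal (1.21 ± 0.48, adjusted p = 0.191). The Ndc80 complex is an assembly of Ndc80, Nuf2, Spc24 and Spc25 in equal parts, and per kilobase of transcript its genes differed in level. Mean CPM per kilobase in Grow was 0.647 for Ndc80, 1.02 for Nuf2, 5.17 for Spc24 and 5.49 for Spc25, against 0.0170, 0.0311, 8.82 and 2.19 in Normal. Spc24 was the most abundant member per kilobase in Normal and Spc25 in Grow. Untested Ndc80 spanned 0.379 to 2.24 CPM in Grow and 0 to 0.988 CPM in Regress, against 0 to 0.149 CPM in Normal. Cenpe, a kinetochore motor that was not tested, spanned 0.659 to 2.15 CPM in Grow and 0 to 3.10 CPM in Regress, against 0 to 0.436 CPM in Normal, and was the lowest per kilobase in Grow at 0.174.

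The chromosomal passenger complex, which corrects faulty attachments, had no called gene of 3, although all 3 changes had an unadjusted p under 0.05. Aurkb, its kinase, had 1.08, 1.52 and 2.58 CPM in Grow and 0, 0, 2.06 and 5.36 CPM in Regress 1 to 4, against 0, 0, 0.149 and 0 CPM in Normal. The Regress tumours divided into a pair at 0 and a pair within or above the Grow range. The count ratio was 45.6 (8.04 to 1813) on 1 Normal count (edgeR adjusted p = 0.0621). Birc5, survivin, had 1.24, 3.46 and 5.07 CPM in Grow and 0.985, 0.198, 5.67 and 2.40 CPM in Regress, against 0.351, 0.526, 0.299 and 0.873 CPM in Normal (2.36 ± 0.70, edgeR adjusted p = 0.0832). Regress 2 was below every Normal sample, and the other tumours were above them.

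Among spindle motors and microtubule proteins 4 of 6 were called. Kif2c, a kinesin that depolymerises microtubules at centromeres, had 1.14, 1.37 and 2.58 CPM in Grow and 0.591, 0.395, 2.06 and 1.98 CPM in Regress, against 0, 0.175, 0.299 and 0 CPM in Normal, without overlap between tumours and Normal. Its count ratio was 11.7 (3.89 to 57.7) on 3 Normal counts, with an edgeR adjusted p of 0.0363. Tpx2, which activates Aurora A and nucleates spindle microtubules, had 2.27, 3.01 and 4.43 CPM in Grow and 0.197, 0.593, 1.55 and 5.5 CPM in Regress, against 0.351, 0, 0.299 and 0.145 CPM in Normal (3.52 ± 0.82, edgeR adjusted p = 0.0403). Regress 1 alone overlapped Normal. The microtubule bundler Nusap1 and the hyaluronan and spindle protein gene Hmmr were also called, and the motor genes Kif11 (adjusted p = 0.0661) and Kif4 (0.150) were not.

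Of the midzone and cytokinesis genes 4 of 5 tested were called. Racgap1, a subunit of centralspindlin, had 2.32, 4.03 and 4.83 CPM in Grow and 0.591, 0.198, 3.61 and 4.51 CPM in Regress, against 0.527, 0.175, 0.299 and 0.145 CPM in Normal (3.26 ± 0.73, edgeR adjusted p = 0.0370). Kif20a, a motor of the central spindle, had 2.71, 4.64 and 6.25 CPM in Grow and 0.591, 0.593, 1.55 and 6.35 CPM in Regress, against 0.702, 0.350, 0.299 and 0.291 CPM in Normal (2.96 ± 0.67, edgeR adjusted p = 0.0394). For both genes Regress 3 and 4 were clear of Normal. Regress 2 overlapped Normal for both, and Regress 1 did so for Kif20a. Prc1, which bundles midzone microtubules, and Ect2, the activator of RhoA in cytokinesis, were called as well, while Anln (anillin) was not (adjusted p = 0.102). Kif23, the motor subunit of centralspindlin, was not tested, and its 0.220 to 1.65 CPM in Grow and 0.198 to 0.564 CPM in Regress overlapped its 0 to 0.598 CPM in Normal. The libraries carry no strand information, and exons of several members overlap a gene on the opposite strand in GENCODE M21. Overlap took 31.8% of the exon bases of Kif20a (with Cdc23), 22.8% for Ube2c (Tnnc2), 21.8% for Prc1 (Rccd1), 15.1% for Kif4 (Pdzd11) and 10.4% for Ccna2 (Exosc9), so, with no strand setting stated for the counting, reads from the shared stretches cannot be assigned to one gene of the pair.

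The rise was clearest in the Grow group. Against Normal, edgeR called 22 of 35 members higher and 0 lower, where 1.12% of all features were called higher, 33 had an unadjusted p under 0.05 (16.6% of all features), and the median log2 fold change was 3.52. The 19 genes called over all tumours were all among them, with Cdc20, Nuf2 and Ube2c added. Every Grow library exceeded every Normal library for 31 of 35 members, against 5.27% of all features, the exceptions being Ccnf, Mad2l1, Spc24 and Spc25. Taken one at a time, Grow 1 to 6 had 34, 32, 33, 32, 32 and 34 members above all Normal libraries, against 24.5%, 25.4%, 22.0%, 22.3%, 23.8% and 22.8% of all features. Summed over the 40 genes, the level was 152 ± 32.2 CPM in Grow (SD, n = 6) and 109 ± 65.2 CPM in Regress (SD, n = 4), against 33.3 ± 7.92 CPM in Normal (SD, n = 4). Grow 3 and Grow 4 were the closest pair of libraries within a group (r = 0.979 over genes). Grow 2, which had the same treatment, correlated with them at 0.825 and 0.826. The pair of Grow 3 and Grow 4 differed beyond sampling noise and was kept as 2 samples. With the pair summed into 1, 10 members were called in Grow in place of 22, and 86 of all features were called higher in place of 138. Leaving out Spc24 and Ccnf, the sums were 138 ± 31.8 CPM in Grow and 94.0 ± 66.6 CPM in Regress, against 16.3 ± 4.13 CPM in Normal. The call count of 22 was 0, 1, 0 and 0 without Normal 1, 2, 3 or 4 (3, 13, 5 and 3 features higher). Without Grow 1, 3, 4, 5 or 6 it was 3, 13, 11, 3 and 1 (29, 103, 102, 41 and 15 features higher).

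**Figure D3:**
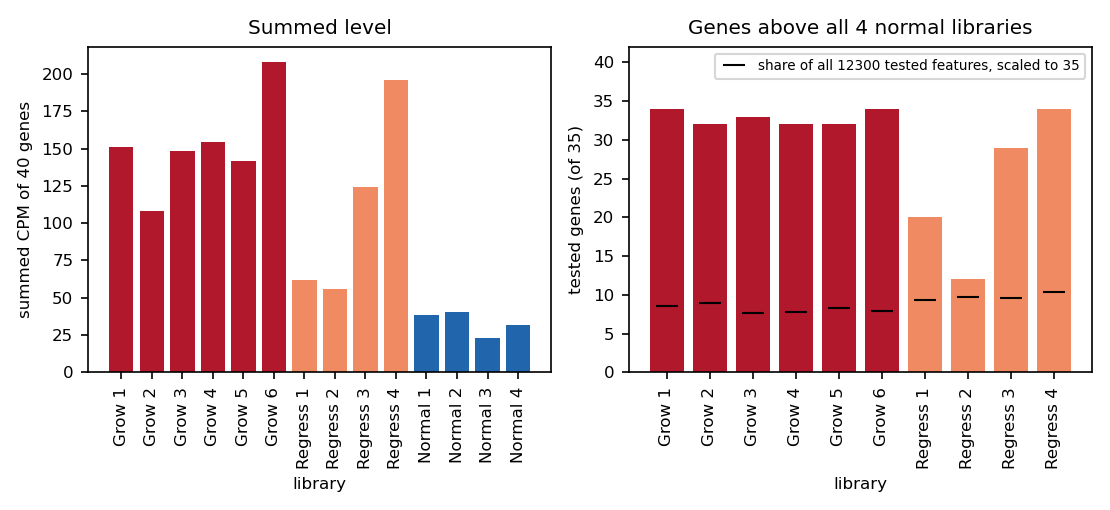
Summed CPM of the 40 genes in each library (left, bars from 0) and the number of the 35 tested genes above all 4 Normal libraries in each tumour (right, bars), with Grow and Regress left of Normal. Black marks give the share of all 12300 features above Normal in that library, scaled to 35 genes. Grow libraries reach 32 to 34 genes where 22.0% to 25.4% of all features do. Regress 1 to 4 reach 20, 12, 29 and 34 where 26.6%, 27.8%, 27.6% and 29.8% of all features do.

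The Regress tumours were not alike. Summed levels were 61.9, 56.1, 124 and 196 CPM in Regress 1 to 4, against 108 to 208 CPM in Grow and 23.0 to 40.6 CPM in Normal. Regress 4 had 34 of 35 tested members above all Normal libraries, against 29.8% of all features, and it was the highest of the 10 tumours for 14 members, Mki67, Top2a, Aurkb and Kif20a among them. Regress 3 had 29 members above Normal, against 27.6% of features, Regress 1 had 20 (26.6%) and Regress 2 had 12 (27.8%). Regress 2 was the lowest tumour for 16 members and Regress 1 for 12. The 12 of 35 members in Regress 2, which had received the same buffer as the Normal samples, were near the share of all features. They include by definition the 7 members for which all 10 tumours exceeded Normal, a pattern that 1.09% of all features showed. These 7 were Cdk1, Plk1, Bub1, Bub1b, Cenpa, Kif2c and Nusap1. With 4 tumours under 3 treatments, treatment and tumour cannot be told apart in this order, from Regress 2 (buffer) through Regress 1 and Regress 3 (TMZ) to Regress 4 (DMSO).

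Against Normal, the Regress group gave 0 called members, where 0.0244% of all features were called. Even so, 33 of 35 log2 fold changes were above 0 (52.2% of all features), 29 had an unadjusted p under 0.05 (16.2% of all features), and the median was 3.11 against 0.03 for all features. With limma-voom 15 had an unadjusted p under 0.05 (1601 of 12300 features) and the median was 2.46. Without Regress 4 the median by edgeR was 2.13, with 22 of 36 at an unadjusted p under 0.05 (3344 of 12520 features). The lowest adjusted p values by edgeR were 0.0510 for both Cenpa (3.03 ± 0.52) and Cdk1 (3.09 ± 0.56). DESeq2 called 23 members (4.47% of all features higher). Without Regress 1, edgeR called 19 members (3.77% of features higher), and without Regress 4 it called Cenpa alone (0.0799%). Every Regress library exceeded every Normal library for 8 members, the 7 above and Mad2l1, against 2.72% of features.

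**Figure D4:**
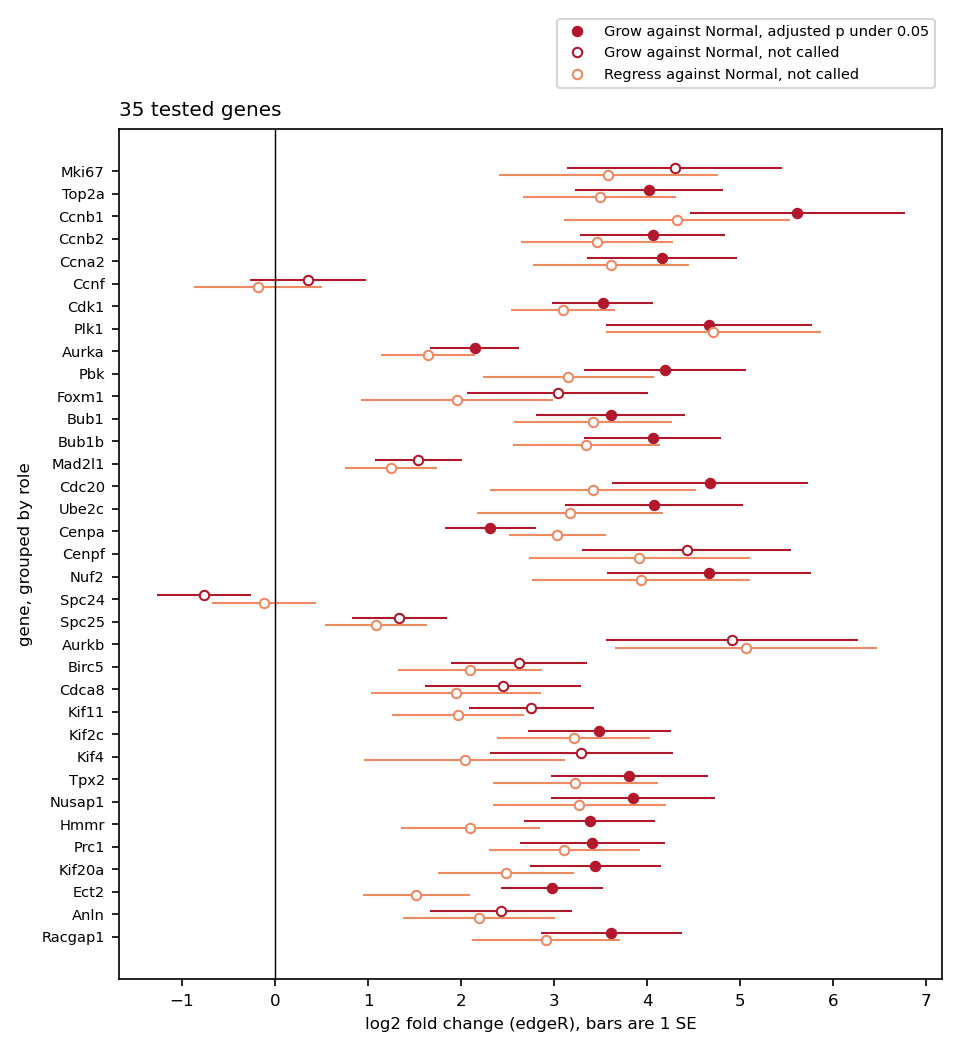
Log2 fold changes against Normal (x axis, edgeR, bars are 1 SE) for the 35 tested genes (rows, grouped by role), for Grow (red) and Regress (orange). Filled points have an adjusted p under 0.05, which 22 Grow values and 0 Regress values have, and both sets lie well above 0 except for Ccnf and Spc24.

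Between Regress and Grow tumours, edgeR called 0 of the 12300 features, and so 0 members. At an unadjusted p under 0.05 there were 1230 features (10.0%) and 2 members, DESeq2 called 31 features and limma-voom 0, neither with a member among them. Log2 fold changes of Regress over Grow were below 0 for 31 of 35 members, against 51.0% of all features, with a median of -0.55. Cenpa (0.72 ± 0.42) and Spc24 (0.65 ± 0.51) had the largest positive values, with edgeR adjusted p of 0.509 and 0.575. The 2 members with the lowest p were Ect2 (-1.46 ± 0.49, adjusted p = 0.474) and Hmmr (-1.28 ± 0.59, adjusted p = 0.491). For no member did the Regress libraries lie wholly above or below the Grow libraries, and wholly below was the case for 0.545% of all features. The difference moved with single libraries. The median was -0.30 without Regress 1, -0.29 without Regress 2 and -0.55 without Regress 3. On all samples limma-voom gave -1.15, with 11 members at an unadjusted p under 0.05 (982 of 12300 features). Without Regress 4 the median was -1.45, and edgeR called Ect2, Foxm1, Hmmr, Kif11, Kif20a, Kif4 and Mki67 lower, 7 members where 5.21% of all features were called lower. In that comparison Mki67 changed by -3.14 ± 0.85 and Kif20a by -2.35 ± 0.48.

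Long and short transcripts differed in level in single libraries. Features over 5000 bases differed from those under 1500 bases by a median log2 deviation of -1.06, -1.11, -1.30 and 1.15 in Regress 1 to 4, of -0.40 to 1.26 in Grow and of -0.80 to 1.32 in Normal. In Regress 3 the 12 tested members under 2000 bases lay at a median of 0.21 above the Grow mean, while the 11 members over 4000 bases lay at -1.22. Birc5 and Cenpa are short and were high there, while the long transcripts of Mki67 and Cenpf were low. With the length trend of each library removed, the same medians were -0.26 and -0.82. In Regress 4 the short members lay at 0.04 and the long ones at 0.69 before removal, and at 0.34 and 0.49 after it. In Regress 1 they lay at -1.36 and -2.06 before, and at -1.95 and -1.60 after. In Regress 2 the short and long members lay at -2.06 and -2.05 before removal, and at -2.43 and -1.54 after it. With the trend removed in all libraries, edgeR called 26 members in tumours (3.63% of features higher), 27 in Grow (2.94%), 0 in Regress over Grow and 6 in Regress against Normal (1.14%), the last being Bub1b, Ccna2, Cdk1, Cenpa, Cenpf and Top2a. What makes length differ between the libraries was not tested.

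**Figure D5:**
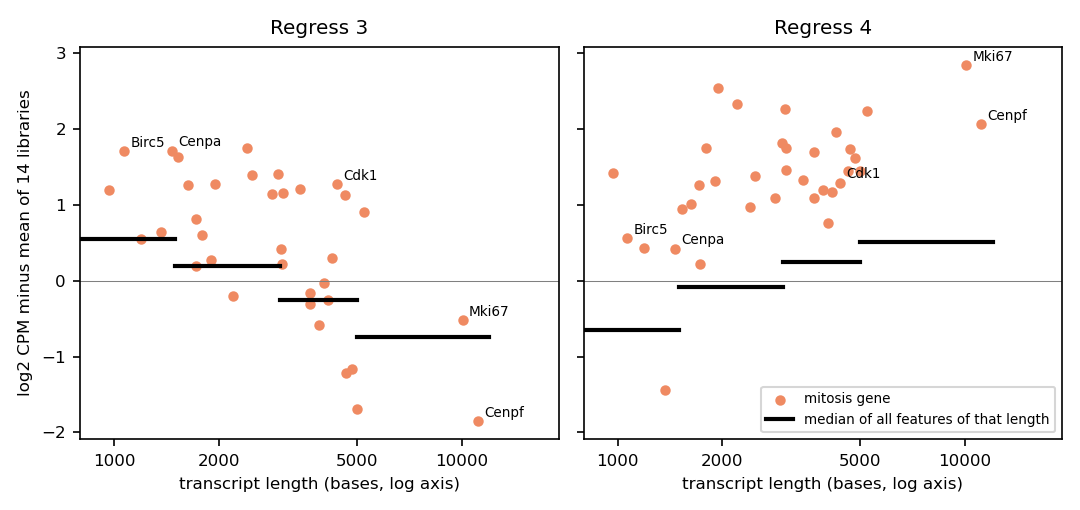
Log2 CPM of each tested mitosis gene minus its mean over the 14 libraries (y axis) against transcript length (x axis, bases, log axis) in Regress 3 (left) and Regress 4 (right). Black lines are medians of all features in 4 length classes. They fall with length in Regress 3 and rise in Regress 4, and Mki67 and Cenpf follow them in direction.

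The drug contrasts gave 0 called members. TMZ, which only tumours had received, was fitted beside the group in all 14 samples. For it edgeR called 0 of 12300 features (1704, or 13.9%, at an unadjusted p under 0.05, DESeq2 464, limma-voom 2). The members had a median log2 fold change of -0.44, or 0.13 without Regress 4. Leaving out 1 library moved the count over all features to 737 without Grow 2, 110 without Regress 3 and 4 without Regress 1, with 0 members called in each. The 3 Grow tumours with TMZ had all received SAHA as well. Spc24 (1.05) and Hmmr (-1.26) were the 2 members with an unadjusted p under 0.05. For SAHA within Grow, which compared 4 treated tumours with the DMSO tumours Grow 1 and Grow 5, edgeR called 0 features (325, or 2.64%, at an unadjusted p under 0.05, DESeq2 52, limma-voom 0), 0 members had an unadjusted p under 0.05, and the members' median was 0.22. Since 3 of the 4 SAHA tumours had also received TMZ, the drugs cannot be told apart there. All Normal samples had received buffer. In the 4 tumours without a drug (Grow 1, Grow 5, Regress 2 and Regress 4) against Normal, 10 members were called higher, against 4.68% of features, and 9 of them are among the 19. They were Ccna2, Ccnb1, Ccnb2, Cdk1, Cenpa, Cenpf, Hmmr, Kif20a, Top2a and Tpx2.

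Beyond the 40 genes, 126 other genes of the mitotic apparatus in 7 lists were examined, of which 90 were tested. In tumours 2 were called higher (1.59% of all features) and 0 lower, with 64 values above 0 (50.9% of all features) and a median log2 fold change of 0.30. The difference from the 40 genes was not tested. Ckap2l, a spindle protein, had 1.24 to 3.89 CPM in Grow and 0 to 2.54 CPM in Regress, against 0 to 0.176 CPM in Normal (4.11 ± 0.92, edgeR adjusted p = 0.0366). The other was Cdkn1a, which encodes the cyclin-dependent kinase inhibitor p21 and so acts against the cyclins. It had 16.9 to 55.8 CPM in Grow and 4.93, 39.3, 35.3 and 74.1 CPM in Regress 1 to 4, against 4.21, 8.76, 3.88 and 1.89 CPM in Normal (2.80 ± 0.63, edgeR adjusted p = 0.0374). Regress 1 alone overlapped Normal, and Regress 4 had the highest value. Of 24 other kinetochore genes only 11 had enough counts to be tested. These 11 had 0 calls (Dsn1 lowest in p, 2.78, adjusted p = 0.102), although all 11 changes were above 0. Other spindle genes had 1 call of 12 and a median of 1.83, the highest of the 7 lists, and 9 of the 12 had an unadjusted p under 0.05. The microtubule gene Psrc1, named after its values were seen, had the largest change in the list (6.55 ± 1.82, edgeR adjusted p = 0.0685), above that of any of the 35 members tested. It had 28.1 CPM in Grow 1, 19.6 CPM in Grow 6 and 26.7 CPM in Regress 4, and 0.197 to 6.18 CPM in the other tumours, against 0, 0, 0 and 0.291 CPM in Normal. The 16 APC/C subunits and inhibitors had 0 calls and a median of 0.18 (Anapc4, 0.48, adjusted p = 0.113). Condensin, cohesin and separase genes had 0 of 15 called (Smc2, 1.29, adjusted p = 0.143), centriole genes 0 of 7 (Cep152, -1.13, adjusted p = 0.0539) and the MuvB, Myb and E2F regulators 0 of 19, with a median of -0.07 (Rbl1, 1.11, adjusted p = 0.118). Cdkn1a was the 1 call among 10 genes that switch Cdk1.

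Markers of other cell types were read beside these levels. Summed hepatocyte markers, 10 of 10 measured, spanned 49839 to 234992 CPM in Grow and 84160 to 174502 CPM in Regress, against 65305 to 99941 CPM in Normal and were thus abundant in every library of this liver series. Alb took 187356 of 234992 CPM in Grow 6 and 28650 of 65305 CPM in Normal 1. Of the 10 markers, 0 were called higher and 1 lower in tumours. Ass1 lay at 311 to 1566 CPM in Grow and 479 to 2619 CPM in Regress, against 2566 to 3886 CPM in Normal. Cps1 lay at 50.3 to 1782 CPM in Grow and 658 to 1080 CPM in Regress, against 1518 to 3937 CPM in Normal. Other markers of the list did not fall in this way. Alb spanned 26020 to 187356 CPM in Grow and 50742 to 131059 CPM in Regress, against 28650 to 53813 CPM in Normal. Hnf4a overlapped Normal in both tumour groups. The lowest hepatocyte sums were those of Grow 3 and Grow 4, whose mitosis genes stood among the other Grow tumours. The B and plasma cell markers measured (6 of 8) spanned 10.8 to 34.3 CPM in Grow and 23.6 to 57.9 CPM in Regress, against 5.83 to 27.2 CPM in Normal. Jchain took 51.2 of 57.9 CPM in Regress 2 and 19.0 of 21.0 CPM in Grow 1, while Cd79b was highest in Grow 3 at 5.55 CPM. T cell markers (8 of 9) spanned 0.774 to 7.19 CPM in Grow and 2.36 to 14.7 CPM in Regress, against 1.94 to 6.67 CPM in Normal. Stellate and matrix markers, 9 of 9 measured, spanned 67.0 to 128 CPM in Grow and 137 to 987 CPM in Regress, against 175 to 347 CPM in Normal, with 987 CPM in Regress 4, where mitosis genes were highest among Regress tumours. Within that list Dcn lay lower in Grow (26.1 to 72.0 CPM in Grow, against 132 to 294 CPM in Normal), while Col1a1 (2.24 to 9.59 CPM in Grow, against 0.351 to 1.64 CPM in Normal) and Acta2 (2.74 to 6.52 CPM in Grow, against 0.291 to 1.94 CPM in Normal) lay higher in Grow. Cholangiocyte markers (7 of 7) spanned 30.9 to 613 CPM in Grow and 30.1 to 509 CPM in Regress, against 19.2 to 27.7 CPM in Normal, a sum in which Tspan8 took 499 of 613 CPM in Grow 1 and 392 of 509 CPM in Regress 4. Krt7 was at 0.310 to 0.757 CPM in Grow and 0.591 to 2.96 CPM in Regress, against 0.291 to 1.05 CPM in Normal. Krt19 and Epcam were highest in Regress 3, at 34.8 and 56.4 CPM, and reached 3.66 and 4.17 CPM in Grow, against at most 1.05 and 1.23 CPM in Normal. Recruited monocyte and macrophage markers (8 of 9) spanned 87.8 to 393 CPM in Grow and 194 to 675 CPM in Regress, against 58.0 to 344 CPM in Normal. Within that list Gpnmb stood at 217 CPM and Trem2 at 18.6 CPM in Regress 4, and at no more than 16.2 and 3.86 CPM in any other library. Neutrophil markers (5 of 6) spanned 5.25 to 12.4 CPM in Grow and 1.69 to 66.4 CPM in Regress, against 2.09 to 26.5 CPM in Normal, with the highest sum in Regress 1. NK cell markers (6 of 6) spanned 2.05 to 6.72 CPM in Grow and 1.41 to 8.24 CPM in Regress, against 0.149 to 5.96 CPM in Normal. Of these, Klrb1c alone was at 0 in every library. Kupffer cell markers (10 of 10) spanned 112 to 571 CPM in Grow, 324 to 983 in Regress and 413 to 1176 in Normal. Endothelial markers (8 of 8) spanned 90.7 to 244, 146 to 176 and 118 to 168 CPM in the same order. Erythroid markers (5 of 7) spanned 303 to 1158, 167 to 769 and 403 to 1958 CPM. In tumours 1 endothelial, 1 stellate and matrix and 1 cholangiocyte marker were called higher, against 1.59% of all features. The other lists had 0 called higher. The part of these cells in the mitotic transcripts was not tested.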

How the data were processed

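Total RNA (Qiagen RNeasy) was sequenced from Illumina TruSeq RNA v2 libraries, which do not mark strand, per the labels' protocols. Tools named in the submitters' processing notes are edgeR 3.14.0 and Salmon 0.3.1, with the build mm9. The authors deposited estimated counts, not normalized and not whole, in a table of 35230 transcript rows by 14 samples, and 1 further column was not used. Rows were matched to gene symbols through RefSeq tables of GRCm38.p6 (26077 rows) and GENCODE M21 (148 rows), and 9005 unmatched rows, 3.52% to 12.1% of a library, stayed as features of their own. The rows of a gene were added and the sum rounded to a whole number. Because the builds differ, coordinates are given only for the RefSeq promoters.

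All 14 samples entered one edgeR fit with 3 groups (edgeR 4.0.16 in R 4.3.3, limma 3.58.1, filterByExpr at a minimum count of 10, TMM, robust quasi-likelihood, Benjamini-Hochberg adjustment over 12300 features), and the biological coefficient of variation was 0.483. The SE of a log2 fold change is its size over the square root of F. CPM and log2 CPM (prior count 2) use TMM-adjusted library sizes. Alternatives used DESeq2 1.42.0, limma-voom, other size factors, no filter, removal of each library's length trend, and left-out libraries. The floor of a count of 0 is 3 counts over the 4 Normal libraries, and intervals and floors cover counting error only. Code was tested on simulated data. Replicate numbers were not used to pair the samples in the main fit.

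The members and the lists were chosen with earlier results of these data known. Mki67, Top2a, Foxm1, Cdk1 and Cdkn1a were always described, with up to 2 members of lowest p per role group, any untested, highest or lowest member, and of each other list up to 3 called genes or the 1 of lowest p. Ndc80 complex genes, Ccnf and Mad2l1 got more values after theirs were seen. Samples were grouped by title.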

Additional observations from a re-analysis of the deposited data

Results flagged for a closer look

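In 51 groups of 4 or 6 samples tested for the 16 genes named by rule and the summed level, 7 held a sample far from the others. The rule flags about 1 in 20 groups when values are normally distributed and groups are independent. These values rest on few counts and come from the same libraries, so 7 of 51 cannot be set against that rate. In the Regress group Regress 4 stood apart with 21.3 CPM for Mki67 (the nearest of the others at 1.80 CPM), 3.95 CPM for Foxm1 (0.591 CPM) and 6.35 CPM for Kif20a (1.55 CPM). In the Grow group Grow 6 stood apart for Kif2c with 2.58 CPM, against 1.55 CPM in the nearest. Among the Normal libraries Normal 3 was apart for Nuf2 with 0.299 CPM and for Aurkb with 0.149 CPM, where the others were at 0, which are 2 counts and 1 count, so that any gene read in a single Normal library would stand apart in this way, and Normal 1 for Kif20a with 0.702 CPM, against 0.350 CPM in the nearest.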

How the results depend on the processing

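Among alternatives for the 16 genes named by rule in tumours against Normal, 258 values kept their direction and their side of the threshold, 106 lost the call, 16 gained it and 0 changed direction. The number of members called was 19 of 35 in tumours, 22 in Grow and 0 in Regress, each against Normal, where 195, 138 and 3 of all features were called higher. With DESeq2 it was 29, 31 and 23 (725, 647 and 550 features higher). With limma-voom it was 0, 0 and 0 (45, 32 and 0 features higher). With no filter (40 members tested) it was 14, 15 and 0 (147, 111 and 2 features higher). With Grow 3 and Grow 4 summed (34 tested) it was 9, 10 and 0 (154, 86 and 0). Without Normal 4 and Regress 2 (37 tested) it was 0, 2 and 0 (0, 9 and 0). With the length trend removed it was 26, 27 and 6 (415, 337 and 130). With DESeq2's size factors in edgeR, and with unnamed rows left out, the Regress count was 2 (32 and 57 features higher). Tumours without a drug gave 10 of 33 (4.68% of features higher). Leaving out 1 library (32 to 37 tested) gave 0 to 29 in tumours, 0 to 29 in Grow, 0 to 19 in Regress and 0 to 7 in Regress against Grow, with 0 throughout for TMZ and SAHA. Over all features the calls higher ran from 0 to 598 in tumours, 3 to 381 in Grow and 0 to 476 in Regress. The calls lower in Regress against Grow ran from 0 to 652. The replicate block gave 0 called members and 0 called features in all 6 comparisons, and same-numbered samples correlated at -0.522 to 0.197. Normal 4 and Regress 2, which share a sample code, correlated at 0.107, so these values cannot show which samples came from one animal. In the 250 bases before the start alone, 37.1% of members' promoters held a CHR element and 34.3% held both motifs, against 17.1% and 6.02% of all promoters. The causes were not tested. Depth limits the Normal side, where 11 members had at most 3 counts in 4 libraries.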
